A study of Homo sapiens with 4 samples.

Results

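The Grainyhead-like genes GRHL1, GRHL2 and GRHL3 were examined for binding of the forkhead transcription factor FOXC1 in J82 cells, an established human bladder cancer cell line. Chromatin immunoprecipitation followed by sequencing (ChIP-seq) had been carried out on J82 cells grown in DMEM with 10% FBS, using the anti-FOXC1 antibody D8A6 in 2 biological replicates. Each FOXC1 ChIP replicate gave 1 list of peaks, and 2 input libraries, sequenced without antibody, served as background for peak calling. All 4 libraries were single-end reads of 75 bp from the same line, so the data hold no second condition, and replicates are compared with each other and with the rest of the genome. The peak lists hold no expression values, so the labelled cell line was not checked against marker genes, and levels of the GRHL transcripts were not analysed here.

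The members were chosen by name, and their peaks by position: a peak belonged to a GRHL gene when its summit, the base with the highest read pileup, lay in the gene body or within 50 kb of it. Peak positions are measured values of this experiment, so the peak counts at these genes are a description and carry no test. By this rule, 13 of 22405 peaks of replicate 1 and 23 of 41789 peaks of replicate 2 fell at the 3 genes. Peaks of both lists that overlapped by at least 1 bp were merged into shared regions, and 10 of 13238 shared regions fell there, 6 at GRHL2, 3 at GRHL3 and 1 at GRHL1. Both libraries share the cell line and the antibody, and neighbouring regions share a locus, so the 10 regions are not independent replicates of one another.

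Grainyhead-like proteins are transcription factors of the CP2 superfamily that bind DNA as dimers at sites related to AACCGGTT. They are expressed mainly in epithelia, where GRHL2 maintains genes of cell junctions and of the epithelial state and opposes the mesenchymal factor ZEB1, GRHL3 drives terminal differentiation of the epidermal barrier and of the umbrella cells that line the bladder, and GRHL1 acts on desmosomal genes of the skin. FOXC1 binds through a forkhead domain to sequences of the general form GTAAACA.

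The sequences under the 4 shared summits at GRHL3 and GRHL1 are shown because they are the DNA on which the FOXC1 signal at these genes was centred. Each run covers 101 bp of the GRCh37 (hg19) plus strand, centred on the midpoint between the summits of both replicates, and all 4 lie in introns with no overlap with an exon. Capitals mark a match to a forkhead sequence (the letters GTAAACA, the variants GTAAATA and ATAAACA, and also the form ATAAATA, on either strand) or to the AP-1 sequence TGACTCA, whose other strand reads TGAGTCA.
GRHL3, chr1:24610441-24610541: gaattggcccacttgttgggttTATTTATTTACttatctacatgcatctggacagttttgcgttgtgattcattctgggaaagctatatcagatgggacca
GRHL3, chr1:24621364-24621464: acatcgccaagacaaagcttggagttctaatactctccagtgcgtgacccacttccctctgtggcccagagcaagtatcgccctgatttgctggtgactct
GRHL3, chr1:24678810-24678910: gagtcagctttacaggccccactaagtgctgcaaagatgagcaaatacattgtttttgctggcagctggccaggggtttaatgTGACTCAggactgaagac
GRHL1, chr2:10113502-10113602: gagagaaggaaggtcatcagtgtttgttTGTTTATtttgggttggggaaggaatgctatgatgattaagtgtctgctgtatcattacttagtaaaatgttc
In the first GRHL3 sequence the capitals are a pair of overlapping forkhead matches on the minus strand, GTAAATA and ATAAATA, centred 21 and 25 bp before the summit. The second GRHL3 sequence held neither kind of match, and the third held an AP-1 sequence centred 36 bp after the summit. In the GRHL1 sequence the forkhead match ATAAACA was on the minus strand, 19 bp before the summit.

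At GRHL3, which spans chr1:24526048-24690972 on the plus strand, 5 peaks of replicate 1 and 5 of replicate 2 were listed in a window of 265 kb, with 3 shared regions. The start site of the canonical transcript, at position 24645847, is used as the origin for distances. One annotated transcript starts 119 kb upstream of the next start site, and 2 of the 3 shared regions lie in an intron of that transcript, upstream of every other one. Without it the gene body would begin at 24645254, and those 2 regions would still count through the 50 kb rule.

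The strongest GRHL3 region, chr1:24610215-24610767, lay in an intron 35.4 kb upstream of the canonical start. Fold enrichment, which divides the pileup of reads over the summit by the background after adding 1 to each, was 4.76 in replicate 1 and 6.34 in replicate 2 (5.55 ± 1.12, SD, n = 2). The −log10 of the q-value, which is the p-value of that pileup adjusted over the genome, was 8.50 and 19.5. Its summit is the one that carries the overlapping forkhead matches printed first above. From the fold enrichment and p-value, the reads over the summit were recovered as 26 in replicate 1 (exact Poisson 95% interval 17.0 to 38.1) and 48 in replicate 2 (35.4 to 63.6), against a background of 4.67 and 6.0. These intervals overlap, and they cover counting error alone.

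The region at chr1:24620696-24621640, 24.4 kb upstream of the canonical start, had fold enrichments of 3.46 and 4.88 (4.17 ± 1.01, SD, n = 2) and −log10 q of 3.18 and 9.53. It had no forkhead sequence within 50 bp of its summit, but GTAAACA stood 66 bp before it. The third region, chr1:24678625-24679069, lay in an intron 33.0 kb downstream of the canonical start. It was enriched 2.33-fold in replicate 1 and 5.15-fold in replicate 2 (3.74 ± 2.0, SD, n = 2), and its −log10 q of 0.751 in replicate 1 was the weakest of the 10 regions in that replicate. Recovered reads there were 16 and 26, with overlapping intervals, against a background of 6.29 and 3.75. The value in replicate 2 was the lowest background of that list. What part the background had in the difference between the folds was not tested. This is the region with the AP-1 sequence.

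Of the 3 GRHL3 regions, 1 reached a −log10 q of at least 5 in both replicates. By −log10 p, the strongest peak found in replicate 2 alone, chr1:24593009-24593716, had a fold enrichment of 4.39 and lay 52.7 kb upstream of the canonical start, in an intron of the far upstream transcript. In replicate 1 the unshared peak with the highest −log10 p, 4.41 at chr1:24726674-24726933, had a fold enrichment of 2.42, below the 2.71 of the other unshared one, and lay in an intron of the neighbouring gene STPG1, 990 bp from an STPG1 start site. ID3, whose protein blocks helix-loop-helix factors and which also lies on chromosome 1, starts 724, 735 and 793 kb from the 3 GRHL3 regions. The paper places a FOXC1 binding site at a distal enhancer upstream of ID3 and proposes that FOXC1 may regulate ID3 through it. The distance from ID3 that the paper states for this site falls between those of the middle and the farthest GRHL3 region. Its exact coordinates were not compared with the GRHL3 regions here.

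GRHL1, at chr2:10091822-10142405 on the plus strand, had 1 peak of replicate 1 and 5 of replicate 2 in a window of 151 kb, and a single shared region, chr2:10113354-10113691, in an intron 21.7 kb downstream of its start. A fold enrichment of 3.29 and 2.27 was measured in replicates 1 and 2 (2.78 ± 0.721, SD, n = 2), and −log10 q was 2.63 and 1.03, so neither replicate reached 5. The recovered reads were 16 (9.15 to 26.0) and 19 (11.4 to 29.7), against a background of 4.16 and 7.0. The raw read number was not lower in replicate 2, and the background was higher there. Over all shared regions, however, the median read number was 24 in replicate 1 and 44 in replicate 2, a larger rise than at this region. The background of 4.16 was also the lowest of the replicate 1 list. What lowered the fold in replicate 2 was not tested. This was one of the weakest regions shared by the replicates, at rank 13116 of 13238 when regions were ordered by the worse of their ranks in both lists.

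A stronger GRHL1 peak was present in replicate 2 alone. It lay at chr2:10115961-10116374, 24.4 kb downstream of the start and also in an intron, with a fold enrichment of 4.72, a −log10 q of 7.33 and 25 reads. At GRHL1, therefore, the site with the highest enrichment and the site found in both replicates were different sites. None of the peaks of replicate 1 at GRHL1 was unshared, since its 1 peak there was the shared one.

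GRHL2 spans chr8:102504667-102681954 on the plus strand and held most of the peaks, 7 of replicate 1 and 13 of replicate 2 in a window of 277 kb. Of its 6 shared regions, 4 lay upstream of the gene and 2 in its body, and 5 reached a −log10 q of at least 5 in both replicates. The plot of fold enrichment along the loci shows the upstream group and the strong sites within the gene.

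**Figure D1:**
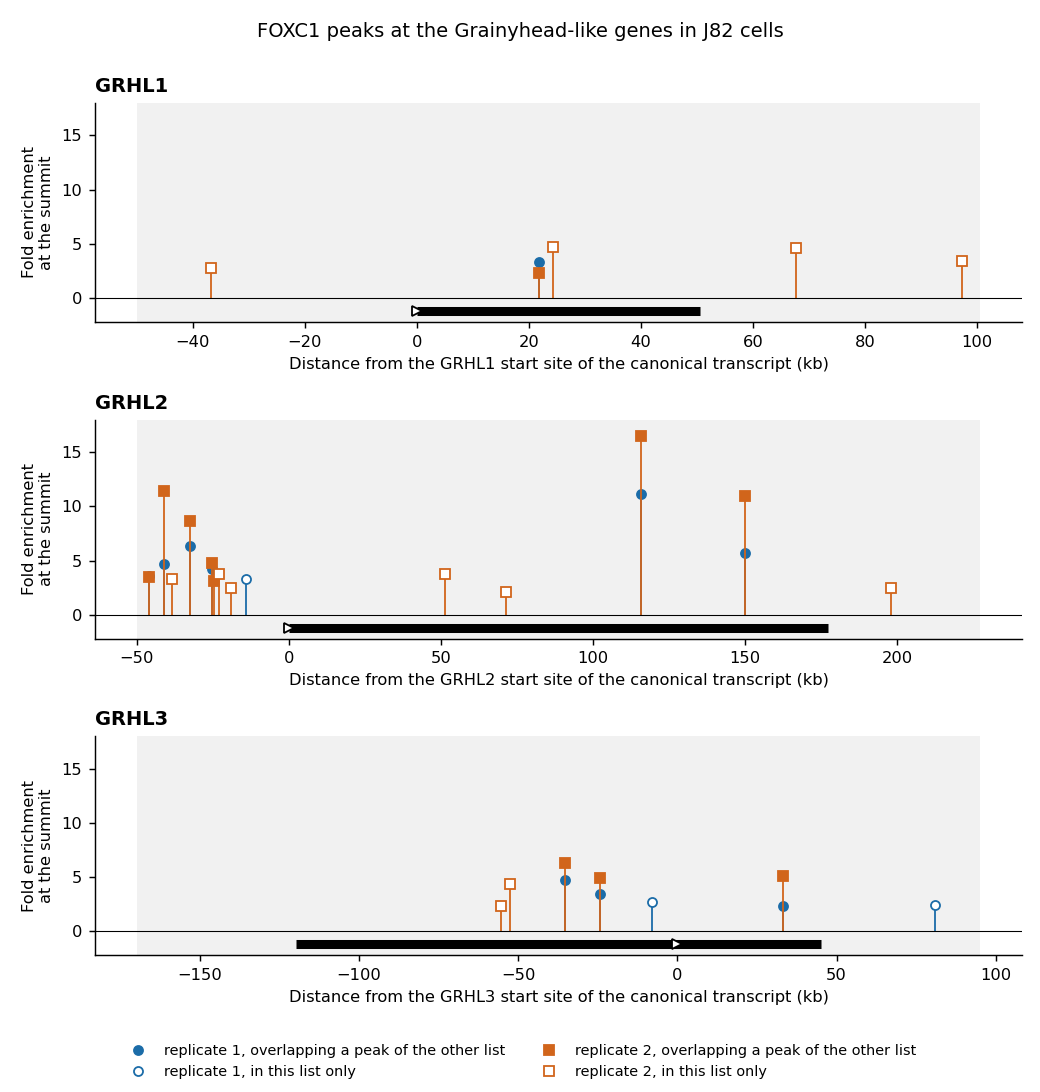
Fold enrichment of every FOXC1 peak at GRHL1, GRHL2 and GRHL3 (y axis) against the distance of its summit from the start site of the canonical transcript in kb (x axis). Circles are replicate 1 and squares replicate 2, filled where a peak of the other list overlaps and open where none does; the black bar is the gene body, the arrowhead the canonical start and the grey area the gene body with 50 kb on each side. The highest pair stands in the GRHL2 body at 115.7 kb, with folds of 11.1 and 16.5, and no peak lies within 2 kb of a start site of the GRHL gene itself.

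The strongest region of all 3 genes was in a GRHL2 intron at chr8:102619859-102620681, 115.7 kb downstream of the start. The folds were 11.1 in replicate 1 and 16.5 in replicate 2 (13.8 ± 3.82, SD, n = 2), with −log10 q of 48.2 and 111. The summit carried 70 reads in replicate 1 (54.6 to 88.4) and 145 in replicate 2 (122 to 171), over a background of 5.39 and 7.0. It was rank 930 of the 13238 shared regions. No forkhead sequence lay within 50 bp of this summit, and the nearest, GTAAATA, stood 67 bp from it.

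The other region in the GRHL2 body, chr8:102654429-102654927, lay in an intron 150.03 kb downstream of the start. Its fold enrichment was 5.72 and 11 (8.34 ± 3.70, SD, n = 2), its −log10 q 13.8 and 51.4, and GTAAATA stood 9 bp from its summit. Recovered reads were 34 (23.5 to 47.5) and 83 (66.1 to 103), so the intervals of the replicates did not overlap. Here and at the other regions, reads were not scaled for the depth of the libraries. Over all shared regions the median was 24 reads in replicate 1 and 44 in replicate 2.

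Upstream of GRHL2, the 4 shared regions fell within 20.8 kb of each other, with gaps of 4.95, 8.65 and 7.24 kb between neighbouring summits. The region farthest from the gene, chr8:102458118-102458889, was 46.0 kb upstream and nearly equal in both replicates, with a fold enrichment of 3.56 and 3.52 (3.54 ± 0.0285, SD, n = 2). It was the one GRHL2 region below a −log10 q of 5 in a replicate, at 4.04 and 5.91, and no forkhead or AP-1 sequence lay within 200 bp of its summit. It lay in an intron of the uncharacterised non-coding gene ENSG00000254084.

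The next region, chr8:102463290-102464373, 41.1 kb upstream, differed most between replicates, at 4.64-fold in replicate 1 and 11.4-fold in replicate 2 (8.01 ± 4.77, SD, n = 2). Reads over the summit were 37 (26.1 to 51.0) and 87 (69.7 to 107). GTAAACA stood 7 bp from the summit, the shortest distance among the 10 regions. The summit lay 1067 bp from the start site of ENSG00000254084.

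At chr8:102471629-102472580, 32.4 kb upstream and between annotated genes, fold enrichment was 6.36 and 8.61 (7.49 ± 1.59, SD, n = 2) and −log10 q was 19.7 and 33.6. This summit stood between ATAAACA matches, 34 and 40 bp to either side. Nearest to the gene, chr8:102479256-102480128 lay 25.2 kb upstream in an intron of the non-coding gene ENSG00000254024, with fold enrichments of 4.25 and 4.81 (4.53 ± 0.394, SD, n = 2) and GTAAACA 19 bp from the summit. Its reads were 36 (25.2 to 49.8) in replicate 1 and 68 (52.8 to 86.2) in replicate 2, with intervals apart, and the background was 7.71 and 12, of which the value in replicate 2 was the highest at any GRHL peak. Replicate 2 had 2 peaks inside this region and replicate 1 had 1.

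Among unshared peaks at GRHL2, the 1 of replicate 1 was chr8:102490443-102490890, 14.0 kb upstream, with a fold enrichment of 3.32. The one of replicate 2 with the highest −log10 p, chr8:102481518-102481875, was 22.98 kb upstream with a fold enrichment of 3.73, a −log10 q of 7.60 and a forkhead sequence within 50 bp, and by fold the highest unshared one, at 3.78, lay in the GRHL2 body. Over the 3 genes, the 3 unshared peaks of replicate 1 had folds of 2.42 to 3.32 and none reached a −log10 q of 5, and the 12 of replicate 2 had folds of 2.12 to 4.72 with 4 reaching it.

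Reads over the summits were set beside the background that MACS2 derives from the input library. It is not a local value at every peak. The lowest background was 4.16 in replicate 1 and 3.75 in replicate 2, and GRHL peaks far from each other had these same values. The median background of the shared regions at GRHL2 was 5.73 in replicate 1 and 6.50 in replicate 2, above that of 62.0% and 79.3% of all shared regions. At GRHL3 it was 4.67 and 5.13, above 38.1% and 58.2%. The part of this difference in the peak counts was not tested.

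**Figure D2:**
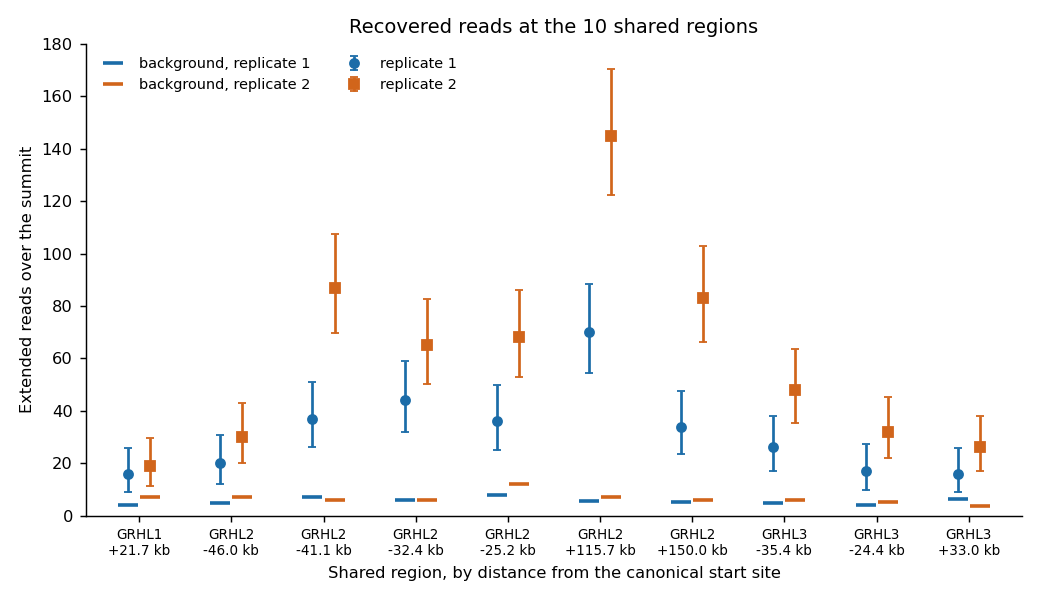
Reads recovered over the summit (y axis) at the 10 shared regions, ordered by gene and distance from the canonical start in kb (x axis), in replicate 1 (circles) and replicate 2 (squares) with exact Poisson 95% intervals. Short bars are the background on the scale of the peak caller, on which a read of replicate 2 counts 0.904. Reads run from 16 to 70 in replicate 1 and from 19 to 145 in replicate 2, and the intervals are apart at 4 regions, all at GRHL2. Median reads were 30 and 56.5 over the 10 regions, and 24 and 44 over all shared regions. Higher raw counts in replicate 2 are therefore not particular to GRHL2.

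How the GRHL genes stood among other genes was described by applying the same rule to 20136 protein-coding genes. The GRHL genes were chosen with earlier results of these data known, so their ranks are not those of genes picked blind. Each GRHL gene had at least 1 peak of replicate 1, of replicate 2 and a shared region, as did 62.8%, 80.2% and 46.6% of all protein-coding genes, so the presence of peaks at the 3 genes is not in itself a result about them. GRHL2 had more shared regions than 98.5% of genes, and 312 genes had 6 or more. That count rests on the 50 kb flank, since 2 of the 6 lie in the gene body and none of the other 4 within 10 kb of it. Longer windows hold more peaks, and per 100 kb of window GRHL2 had 2.16 shared regions, a density above that of 96.6% of genes. GRHL3 had 1.13 per 100 kb, above 85.8%, and GRHL1 had 0.664, above 64.3%. Without the far upstream transcript, a choice made after seeing the data, the GRHL3 window would be 146 kb and its density 2.06 per 100 kb, above 96.3%.

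**Figure D3:**
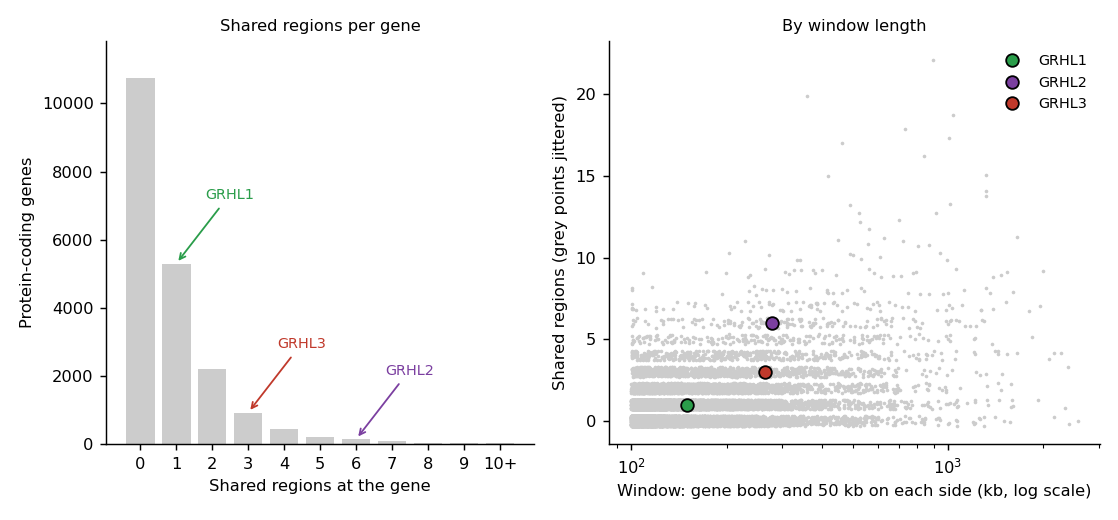
Left, number of protein-coding genes (y axis) by their number of shared regions (x axis), with arrows at the GRHL genes. Right, shared regions per gene (y axis) against the length of the window in kb on a log scale (x axis), with 1 grey point per protein-coding gene, jittered vertically, and coloured points for GRHL1, GRHL2 and GRHL3 at 1, 6 and 3 regions.

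FOXC1 peaks were not found near the start sites of these genes. None of the 3 genes had a shared region, a replicate 1 peak or a replicate 2 peak within 2 kb of a start site of its own, while 8.65%, 12.4% and 25.4% of protein-coding genes had one. Most protein-coding genes thus had none either, so this absence is not in itself a result about the 3 genes. The summit nearest to any own start site was 5688 bp away at GRHL2, 7510 bp at GRHL3 and 12252 bp at GRHL1. Within 2 kb of a start site of any gene lay 1 of the 10 shared regions, the one at ENSG00000254084, against 20% of all shared regions. By annotation, 9 of the 10 regions lay in introns, 6 of them in introns of a GRHL gene and 3 in introns of the non-coding genes upstream of GRHL2, and 1 lay between genes.

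The 4 regions upstream of GRHL2 all lay within 25 kb of each other, so each had the other 3 as neighbours and they form a single cluster. Of all shared regions, 4.15% had at least 3 others within 25 kb. The distance of 25 kb was chosen after the positions of these regions were seen, and 3 others is just what this cluster holds. Nothing is therefore concluded from that share.

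To examine how well the replicates matched at these genes, the pairing of peaks was compared with the whole lists. Of the replicate 1 peaks at the GRHL genes, 10 of 13 were overlapped by a replicate 2 peak (76.9%), beside 59.6% of all replicate 1 peaks. Of the replicate 2 peaks, 11 of 23 were overlapped (47.8%), beside 31.7% of all replicate 2 peaks. Summits of the shared regions lay a median of 20 bp apart between replicates and at most 73 bp, against a median of 28 bp over all shared regions. A −log10 q of at least 5 in both replicates was reached by 6 of the 10 regions and by 50.8% of all.

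Fold enrichment was higher in replicate 2 at 8 of the 10 regions, the exceptions being the GRHL1 region and the outermost GRHL2 region, and at 91.9% of all shared regions. The median log2 ratio of fold enrichment, replicate 2 over replicate 1, was 0.47 at the GRHL regions, with a range from −0.53 to 1.29, and 0.75 over all shared regions, with a spread of 0.52 (SD). Whether these medians differ was not tested. Median fold enrichment was 4.44 in replicate 1 and 5.75 in replicate 2 at the GRHL regions, and 3.79 and 6.71 over all shared regions.

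**Figure D4:**
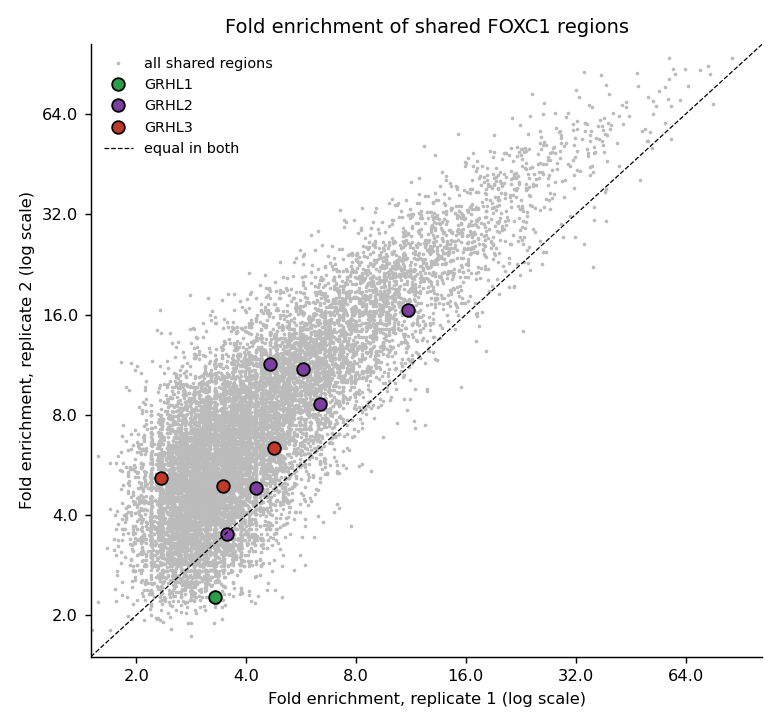
Fold enrichment in replicate 2 (y axis, log scale) against replicate 1 (x axis, log scale) for all 13238 shared regions (grey) and the 10 at GRHL1, GRHL2 and GRHL3 (coloured), with a dashed line where both are equal. The GRHL1 point lies below the line at 3.29 and 2.27, and the GRHL points spread through the cloud up to 11.1 and 16.5.

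To describe the DNA under the peaks, which the position rule did not use, the 101 bp around each shared summit were searched on both strands. A forkhead sequence was present in 6 of the 10 GRHL regions, 4 at GRHL2, 1 at GRHL3 and 1 at GRHL1, and in 48.7% of all shared regions. In windows 500 bp downstream of the summits, it was present in 1 of 10 and in 10.8%. The GTAAACA form was present in 2 of the 10, both upstream of GRHL2, and in 20.8% of all. Widening the search to 200 bp on either side gave a match at 8 of 10 regions, beside 68.8% of all shared regions and 35.5% of the downstream windows. The GRHL share is therefore near that of all shared regions.

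An AP-1 sequence, bound by dimers of the JUN and FOS families, was present within 50 bp in 1 of the 10 regions and in 16.6% of all shared regions, with 1 of 10 and 1.93% in the downstream windows. The grainyhead sequence AACCGGTT was present in 0 of the 10 regions and in 0 of all 13238 shared regions within 50 bp. Its looser form AACNGGTT was present in 0 of the 10 and in 0.906% of all. In the downstream windows of all shared regions, AACCGGTT was present in 0% and AACNGGTT in 0.665%. These counts say that the letters were not in these windows and nothing of where GRHL proteins bind. GC content under the GRHL summits ran from 31.7% to 52.5%, with a median of 38.6% beside 39.6% for all shared regions.

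**Figure D5:**
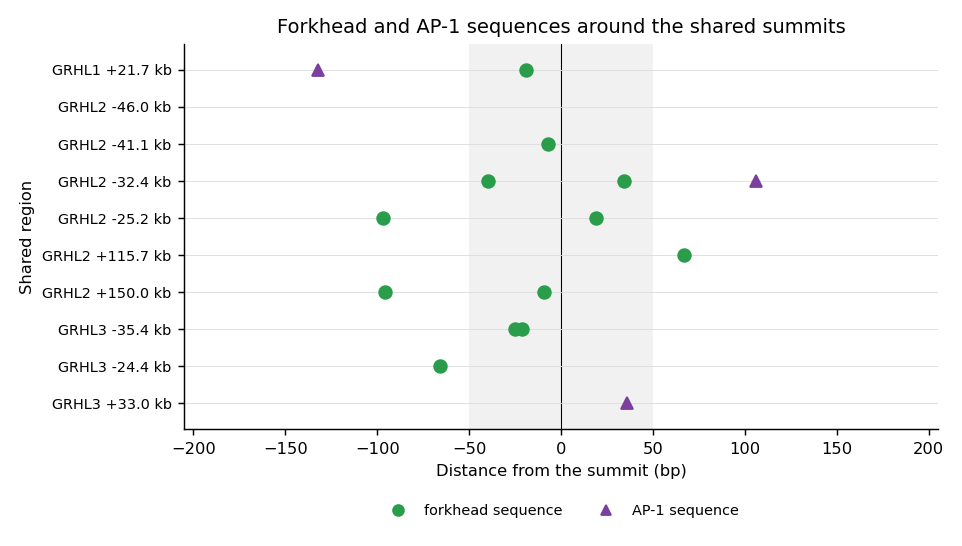
Position of forkhead (circles) and AP-1 (triangles) sequences relative to the summit in bp (x axis) at each of the 10 shared regions (y axis, named by gene and distance from the canonical start in kb). The grey band marks 50 bp on either side of the summit, where 6 regions have a forkhead sequence and 1, at GRHL3, has an AP-1 sequence.

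RefSeq promoter sequences (GRCh38.p14, from 250 bases before to 50 after a start site) were matched for GRHL1, with 1 entry, and GRHL3, with 2. One of the GRHL3 promoters held the forkhead sequence ATAAATA, 202 bases before the start, and 13.6% of 35116 promoters held a forkhead sequence.

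The rule's limit of 50 kb was checked by the regions nearest to it. At GRHL2 the outermost shared region inside was 46.0 kb from the gene body, with folds of 3.56 and 3.52, and the first one outside was 131.4 kb away between genes, with folds of 5.62 and 15.1. At GRHL3 all shared regions lay inside the gene body, and the first one outside the window was 97.8 kb away in an intron of NIPAL3, with folds of 5.03 and 9.15. A peak of replicate 2 lay closer to the limit, 52.6 kb away and also in an intron of NIPAL3, with a fold of 4.08 and a −log10 q of 6.25. At GRHL1 the first shared region outside was 295 kb away in an intron of the non-coding gene ENSG00000240687, with folds of 7.94 and 12.4. In replicate 2, GRHL1 had a peak 46.7 kb away, in an intron of KLF11, which encodes a Krüppel-like repressor, with a fold of 3.44. The next one, at 66.2 kb in an intron of TAF1B, a subunit of the RNA polymerase I selectivity factor, had a fold of 5.35.

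The relatives of the Grainyhead-like proteins in the CP2 superfamily were counted by the same rule. UBP1 had 4 shared regions, 3 of them with a −log10 q of at least 5 in both replicates and at least 1 within 2 kb of a UBP1 start site. TFCP2, an activator of globin genes, had 1 peak of replicate 1 and 3 of replicate 2, and TFCP2L1, a factor of kidney ducts and pluripotent cells, had 2 peaks of replicate 2, with no shared region at either. Thus 1 of the 3 relatives had a shared region, beside all 3 GRHL genes and 46.6% of protein-coding genes.

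Of 19 epithelial genes known as targets or partners of Grainyhead-like proteins, 12 had a shared region (63.2%, beside 46.6% of all protein-coding genes), with a median of 1 a gene against 0 over all genes. This list, like that of the CP2 relatives, was chosen with earlier results of these data known, and the shares were not tested. No gene of this list had more than 2, and 6 had 2. These were EPCAM, an adhesion molecule of epithelia, ESRP2 and OVOL2, a splicing factor and a transcriptional repressor of the epithelial state, DSG1, a desmosomal cadherin, PPL, which encodes periplakin of the cornified envelope, and LMO4, a partner of GRHL3. CDH1, which encodes E-cadherin, had 2 peaks of replicate 1 and 4 of replicate 2 and none shared. At a start site of their own, 3 of the 19 had a shared region, beside 8.65% of all genes, and these were ESRP1, OVOL2 and LMO4. ZEB1 had 2 peaks of replicate 1 and 1 of replicate 2, the latter within 2 kb of a start site, and no shared region.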

How the data were processed

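FOXC1 ChIP-seq peak lists of 2 biological replicates were analysed. Files of the 2 input libraries, and RNA-seq of the study, were not analysed here. Per the labels and the study's methods, the authors mapped reads to hg19 with BWA and called peaks with MACS2 2.2.7.1 against input; peaks were listed per replicate, not on pooled reads. The study's methods also name an irreproducible discovery rate step for reproducible peaks. The filter that ended the deposited lists is not given in the sources used here, and they run down to a −log10 p just above 2, so all peak and shared counts depend on it. The deposited values were a score (−log10 p multiplied by 10), the fold enrichment (a ratio), −log10 p-values and −log10 q-values, all at the summit. The lists hold no read totals. Whole reads and background were solved from fold and −log10 p, with a residual of at most 0.001, for 99.8% of replicate 1 and 99.5% of replicate 2 peaks, and for all peaks at the GRHL genes; the method was tested on simulated data. Intervals cover counting error only.

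Peaks outside chromosomes 1 to 22, X and Y were left out. A shared region was placed midway between the summits of its strongest peaks. Genes were those of GENCODE 44 on GRCh37, the build of the peaks. Members and gene lists were chosen with earlier results of these data known. All 3 members were named with every shared region; of unshared peaks, the one with the highest −log10 p per gene and replicate; of the epithelial genes, those with most shared regions (6 tied) and those with one at a start site, of which ESRP1, like CDH1, was named after its values were seen. Python 3.11.15 with numpy 2.4.6, scipy 1.17.1 and pandas 2.3.3 was used. No test between groups was made, since the files of the input libraries were not analysed.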

Additional observations from a re-analysis of the deposited data

How the results depend on the processing

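No paired analysis was possible because the input libraries, which share replicate numbers with the ChIP libraries, have no file analysed here, and no result comes from a test. Of 39 recomputed counts over the 3 genes, 22 stayed within 1.5 times the value reported and 17 did not. Counting the gene body alone, or 10 kb around it, gave 7 peaks of replicate 1, 11 of replicate 2 and 6 shared regions. The 4 shared regions lost were those upstream of GRHL2, which kept 2 of its 6. At 100 kb the shared count was 11. A −log10 q of at least 5 left 6, 13 and 6, and a fold enrichment of at least 5 left 3, 6 and 3, of which all 3 shared regions were at GRHL2. Leaving out a replicate, the remaining list alone gave 13 to 23 peaks. Promoter summits numbered 0 within 1 kb and 2 within 5 kb. GTAAACA alone left 2 forkhead regions, and a search within 25 bp left 0 with an AP-1 sequence. The median log2 ratio of replicate 2 over replicate 1 was 0.90 with recovered reads, beside 0.47 with fold enrichment. Leaving out the far upstream GRHL3 transcript, chosen after seeing the data, kept 10 shared regions and 13 peaks of replicate 1, with 21 of replicate 2. At the GRHL1 region, with 16 and 19 reads, the counting intervals of the replicates overlap.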
